A study of Homo sapiens with 3 samples.

Results

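Ferritin and the genes that bring iron into a cell, store it, release it and sense it were followed in 3 low-input RNA-seq libraries. These are 10 genes of the 18856 listed in at least 1 library: FTL and FTH1, TFRC, STEAP3 and SLC11A2, SLC40A1, NCOA4, ACO1 and IREB2, and HMOX1. They were chosen by gene symbol, for their roles in iron handling and because FTL had the highest rpkM (reads per kilobase of transcript, scaled to 1000000 mapped reads) of all genes in A549. The level of FTL in A549 and its difference from HBE are therefore given as descriptions, and the other genes were chosen with earlier results of these data known.

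Each library was made from about 10 pg of polyA+ mRNA taken out of bulk mRNA. HBE is a human bronchial epithelial cell line and A549 is a lung adenocarcinoma cell line, and no treatment is given for either. LIEA, the low-input equal-amplification method, fragments the mRNA first and is read on an Ion Torrent sequencer. It was applied to HBE and to A549, while Smart-seq2, which amplifies full-length cDNA primed from the polyA tail and is read on an Illumina sequencer, was applied to HBE alone. The 2 comparisons ask how A549 differed from HBE within LIEA, and how LIEA differed from Smart-seq2 within HBE.

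Of each condition 1 library was used, so no difference below has a replicate check and no p-value is given. A repeat of LIEA of HBE and a library from isolated HBE cells, which the study also describes, were not analysed here. The intervals are at the 95% level and cover counting error only. In the second comparison the library method, the sequencer and the mapping allowance cannot be told apart. By LIEA, 4605855 reads of HBE and 4154060 of A549 were mapped, and by Smart-seq2 9845150 of HBE, at which 3 reads correspond to 0.651, 0.722 and 0.305 RPM, reads scaled to 1000000 mapped reads. All 5 epithelial markers had at least 10 reads in each library. The 4 basal airway keratinocyte markers, KRT5, KRT14, KRT17 and TP63, summed to 1686 rpkM in LIEA of HBE and 6125 in Smart-seq2 of HBE against 8.28 in LIEA of A549, where KRT14 was not listed. Of 10 markers of blood, immune, endothelial and stromal cells, 4 or 5 were listed in a library, with a sum of 22.9 to 43.2 rpkM, and HBA1, HBA2, HBB and DCN were listed in none. These are bulk samples, in which fewer expressing cells and less RNA per cell cannot be told apart.

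Cells take up iron mainly as transferrin bound to the transferrin receptor, which TFRC encodes. In the endosome STEAP3 reduces the iron and the transporter DMT1, the product of SLC11A2, moves it to the cytosol. Ferritin, a shell of FTH1 heavy chains, which oxidise iron, and FTL light chains, which help to mineralise it, stores what is not used. NCOA4 carries ferritin to the lysosome for breakdown, SLC40A1 (ferroportin) exports iron from the cell, and HMOX1 (heme oxygenase 1) frees iron from heme. The iron regulatory proteins, encoded by ACO1 and IREB2, bind a stem-loop in mRNA, the iron-responsive element, when iron is scarce. Bound in the 5′ UTR it blocks translation, as in ferritin and ferroportin mRNA, and in the 3′ UTR of TFRC it protects the mRNA from decay.

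The iron-responsive elements are shown because they are the feature by which ferritin, TFRC and SLC40A1 mRNA are known to be controlled together. They were found in the GENCODE release 44 transcripts on GRCh37 by searching the transcript strand for CNNNNNCAGTGN, with at least 5 paired bases in the stem. Each is given 5′ to 3′ in the transcript's direction, as DNA letters, and the capitals mark the loop CAGTGN.
FTL, chr19:49468593-49468619, plus strand: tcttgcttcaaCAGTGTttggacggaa
FTH1, chr11:61735047-61735073, minus strand: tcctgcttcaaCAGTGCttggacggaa
SLC40A1, chr2:190445388-190445414, minus strand: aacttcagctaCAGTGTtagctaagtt
TFRC a, chr3:195777851-195777877, minus strand: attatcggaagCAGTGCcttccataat
TFRC b, chr3:195777447-195777473, minus strand: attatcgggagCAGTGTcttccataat
TFRC c, chr3:195777382-195777408, minus strand: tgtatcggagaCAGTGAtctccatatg
TFRC d, chr3:195777335-195777361, minus strand: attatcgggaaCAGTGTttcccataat

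The sites of FTL, FTH1 and SLC40A1 lay in the 5′ UTR, in exon 1 of their genes, and the 4 sites of TFRC lay in its 3′ UTR, in exon 19 of 19. In the first 300 bases of the 19467 coding transcripts searched, 0.113% held such a stem-loop, 0.0976% held one on the other strand, and 10.8% held the letters when no stem was required. Of 2283 3′ UTRs within 20% of the 2658 bases of that of TFRC, 0.745% held at least 1 and no other gene held more than 2. The other 6 genes had no match under this rule, which says only that these letters and this stem were not in the transcripts searched. A match is a description of sequence. The libraries measured mRNA levels, and neither translation nor binding was measured.

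By rpkM, the ferritin genes were the most abundant of the 10 in every library. FTL (chr19:49468566-49470136) had 5712 reads in HBE and 65922 in A549 by LIEA, and 13768 in HBE by Smart-seq2, which is a log2 rpkM of 10.48, 14.15 and 10.65. The value of A549 stood apart, while the HBE libraries lay close together. Among all genes by rpkM, FTL ranked 28 in HBE and 1 in A549 by LIEA, and 19 in HBE by Smart-seq2. In A549 it took 15869 RPM (interval 15750 to 15990), against 1240 (1208 to 1273) in LIEA of HBE and 1398 (1375 to 1422) in Smart-seq2 of HBE.

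FTH1 (chr11:61727190-61735106) had 2948 reads in HBE and 11048 in A549 by LIEA, and 62044 in HBE by Smart-seq2, and its log2 rpkM was 9.02, 11.08 and 12.32. The heavy chain was thus lowest in HBE by one method and highest in the same cell line by the other, with A549 between. Its rank by rpkM was 104, 19 and 5 in the same order.

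**Figure D1:**
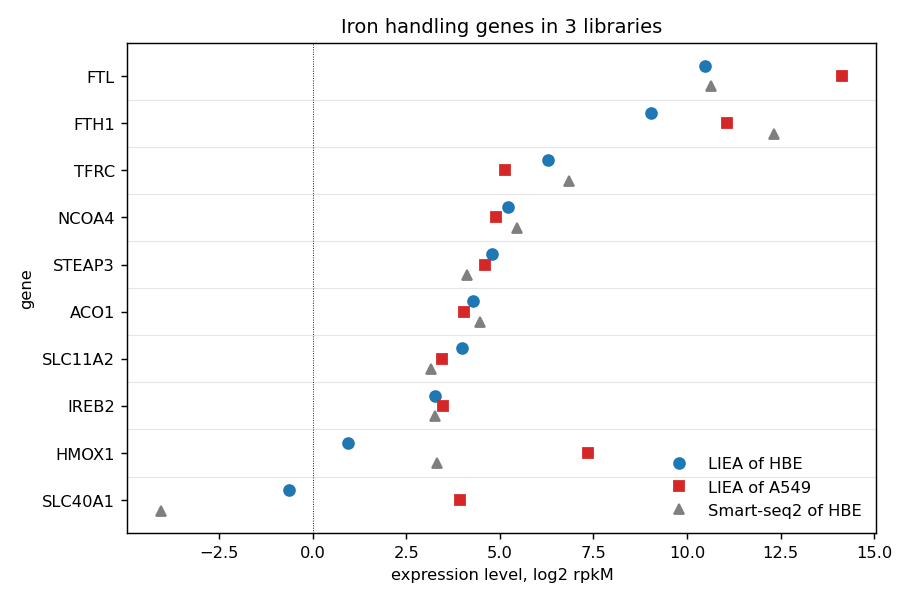
Expression level of the 10 iron handling genes on the log2 rpkM axis, ordered by their level in LIEA of HBE, with 1 marker per library. FTL of A549 sits at 14.15, apart from 10.48 and 10.65 in HBE, while FTH1 of A549 lies between the HBE libraries and SLC40A1 and HMOX1 spread most.

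In A549 relative to HBE by LIEA, both ferritin chains, the iron exporter and heme oxygenase 1 were higher, the transferrin receptor was lower, and the other genes differed by less than 2-fold. All 10 genes had at least 10 reads in both libraries. Of them 4 were at least 2-fold higher in A549, and of 11299 genes with that many reads 13.4% were. TFRC was the 1 gene at least 2-fold lower, against 17.3% of all genes. The median log2 ratio was 0.01 over the 10 genes and -0.16 over all genes. As FTL of A549 was part of how the genes were chosen, these counts are a description. HMOX1 and SLC40A1 had 14 and 10 reads in LIEA of HBE, and 2 genes were higher where at least 100 reads were required in both libraries.

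FTL was 12.8-fold higher in A549 than in HBE by LIEA, a log2 ratio of 3.68 (3.64 to 3.72), and 91 of the 11299 genes, FTL included, were at least as high. FTH1 was 4.16-fold higher, a log2 ratio of 2.05 (2.0 to 2.11), with 432 genes at least as high. Set beside Smart-seq2 of HBE, the same A549 library was 11.3-fold higher for FTL (11.1 to 11.6) and 2.37-fold lower for FTH1 (2.32 to 2.42). This second comparison uses the A549 library again and changes cell line and method at once. FTH1 of A549 was higher than one HBE library and lower than the other.

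The balance of the chains was also read within each library, where it does not depend on how the library is scaled. FTL exceeded FTH1 2.73-fold by rpkM in LIEA of HBE (2.61 to 2.86) and 8.42-fold in LIEA of A549 (8.25 to 8.59). In Smart-seq2 of HBE the order was turned, and FTH1 exceeded FTL 3.19-fold (3.14 to 3.25). FTL made up 73.2%, 89.4% and 23.9% of the ferritin rpkM. Both chains together took 0.188% of the reads of HBE and 1.85% of those of A549 by LIEA, and 0.770% of those of HBE by Smart-seq2. Their summed rpkM was 10.5-fold higher in A549 than in LIEA of HBE and 3.03-fold higher than in Smart-seq2 of HBE. The other 8 genes together took 873, 888 and 1033 RPM, a sum within which HMOX1 was at 3.04 and 260 RPM in HBE and A549 by LIEA, SLC40A1 at 2.17 and 51.3, and TFRC at 409 and 182.

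**Figure D2:**
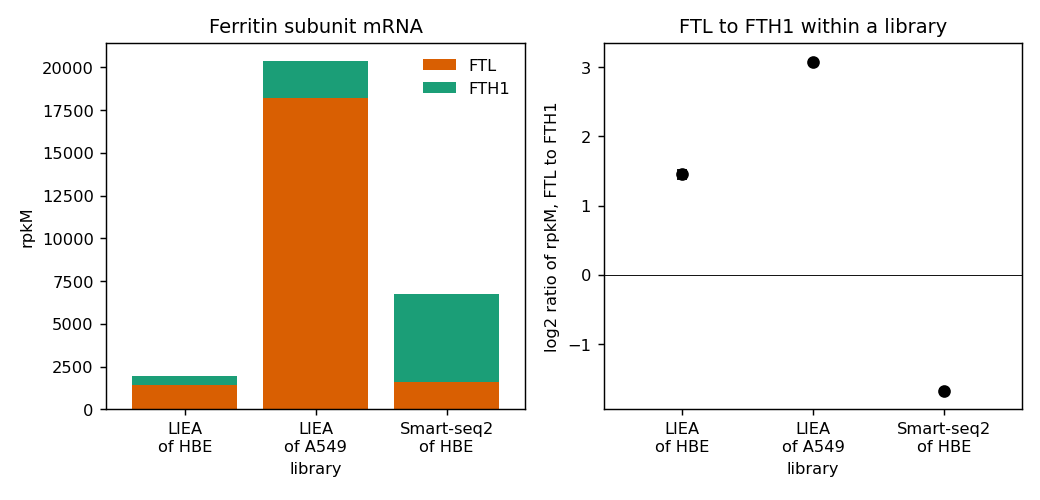
Left, rpkM of FTL and FTH1 stacked for each library. Right, log2 ratio of FTL to FTH1 within each library with its counting interval, which is smaller than most points: 1.45 in HBE and 3.07 in A549 by LIEA, and -1.68 in HBE by Smart-seq2, where the log2 ratio lies below 0.

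Ferritin has many processed copies in the genome. The annotation holds 16 pseudogenes like FTL, with a median identity of 80.1% to it and a highest identity of 97.7%, and 26 like FTH1, with 89.8% and 97.6%. Of each set 1 was listed. FTH1P3 had 15 reads in HBE and 40 in A549 by LIEA, and 8 in HBE by Smart-seq2, and FTLP10 had 1 read in Smart-seq2 of HBE and was not listed in the others. How reads that fit a gene and its copy were assigned is not given in the sources used here, so the split between them is uncertain. Adding the listed copies to their parent left the ratio of FTL to FTH1 on the same side of 1 in each library. The listed copies have too few reads to move it across 1, so this sum does not address how shared reads were assigned. BEST1, which overlaps FTH1 on the opposite strand, was listed at 6 and 8 reads in LIEA of HBE and LIEA of A549 and was not listed in Smart-seq2. FTMT, the mitochondrial ferritin, and FTHL17, a testis ferritin, were listed in no library.

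TFRC (chr3:195739382-195809024), the gene for transferrin-bound iron uptake, took the third place in both HBE libraries. It had 1883 reads in HBE and 757 in A549 by LIEA, and 5877 in HBE by Smart-seq2, a log2 rpkM of 6.29, 5.12 and 6.84. A549 was below both HBE libraries, as were 38.4% of the 10917 genes with at least 10 reads in each library, while 29.5% were above both. The difference was 2.24-fold by LIEA (2.06 to 2.44) and 3.28-fold against Smart-seq2 of HBE (3.04 to 3.54). Its log2 ratio by LIEA was -1.17 (-1.29 to -1.04), and it was -1.0 when the median of all genes was set to 0, which is at the edge of the 2-fold limit.

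FTL and TFRC thus stood in opposite directions in A549. FTL exceeded TFRC 18.2-fold by rpkM in HBE and 522-fold in A549 by LIEA, and 14.1-fold in HBE by Smart-seq2. For FTH1 against TFRC the values were 6.65-fold, 62.0-fold and 44.9-fold, and here A549 and Smart-seq2 of HBE were the nearer pair.

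STEAP3 (chr2:119981407-120023228), the endosomal ferrireductase, had 546 reads in HBE and 433 in A549 by LIEA, and 735 in HBE by Smart-seq2, with a log2 rpkM of 4.79, 4.60 and 4.12. SLC11A2 (chr12:51373184-51422349), the gene of the transporter that takes the reduced iron to the cytosol, had 322, 201 and 391 reads, with a log2 rpkM of 3.98, 3.45 and 3.17. For both genes A549 lay between the HBE libraries. By LIEA, A549 was 1.14-fold lower than HBE for STEAP3 (1.0 to 1.29) and 1.44-fold lower for SLC11A2 (1.21 to 1.73), both within 2-fold. STEAP3 overlaps the antisense RNA gene STEAP3-AS1 and TFRC overlaps a non-coding gene on the other strand, neither of which was listed, and whether counting used strand is not given in the sources used here.

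SLC40A1 (chr2:190425316-190448484), the only exporter of iron known in human cells, was the least abundant of the 10 genes in HBE. It had 10 reads in HBE and 213 in A549 by LIEA, and 2 in HBE by Smart-seq2, a log2 rpkM of -0.63, 3.93 and -4.05. A549 stood apart from both HBE libraries. By LIEA it was 23.6-fold higher in A549, and the 10 reads of HBE give this ratio a wide interval of 12.6 to 50.0. With 2 reads, Smart-seq2 of HBE was below the minimum and entered no count. The ratio of A549 to that library was 252, with a counting interval of 69.0 to 2098. TFRC exceeded SLC40A1 121-fold by rpkM in LIEA of HBE (65.6 to 253) and 2.28-fold in LIEA of A549 (1.96 to 2.67), so the import and export genes were much nearer to each other in A549.

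HMOX1 (chr22:35776354-35790207), which opens the heme ring and releases its iron, showed the largest difference of the 10 genes between the cell lines by LIEA, while against Smart-seq2 of HBE the ratio of SLC40A1 was larger. It had 14 reads in HBE and 1079 in A549 by LIEA, and 155 in HBE by Smart-seq2, a log2 rpkM of 0.93, 7.35 and 3.31. A549 was above both HBE libraries, and the HBE libraries themselves lay apart. By LIEA it was 85.5-fold higher in A549 (50.7 to 157), and 11 of the 11299 genes, HMOX1 included, were at least as high. Against Smart-seq2 of HBE, A549 was 16.5-fold higher (13.9 to 19.7), so the direction was the same and the size was not. HMOX2, the constitutive heme oxygenase, had 311, 177 and 494 reads. HMOX1 was 16.6-fold below HMOX2 by rpkM in LIEA of HBE, 2.38-fold below it in Smart-seq2 of HBE, and 8.16-fold above it in LIEA of A549.

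The genes of iron sensing and ferritin breakdown differed little. ACO1 (chr9:32384601-32454767), which encodes iron regulatory protein 1, had 321 reads in HBE and 247 in A549 by LIEA, and 794 in HBE by Smart-seq2, and a log2 rpkM of 4.27, 4.04 and 4.48. IREB2 (chr15:78729773-78793795), which encodes iron regulatory protein 2, had 282, 293 and 601 reads and a log2 rpkM of 3.27, 3.47 and 3.26. The log2 ratio of A549 to HBE by LIEA was -0.23 for ACO1 (-0.47 to 0.01) and 0.20 for IREB2 (-0.04 to 0.45), and both intervals include 0. By rpkM, ACO1 exceeded IREB2 in each library, 2.0-fold in HBE and 1.48-fold in A549 by LIEA, and 2.32-fold in HBE by Smart-seq2, though IREB2, with the longer transcript, had more reads in A549.

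NCOA4 (chr10:51565199-51590734), the receptor that takes ferritin to the lysosome, had 645 reads in HBE and 465 in A549 by LIEA, and 1616 in HBE by Smart-seq2, with a log2 rpkM of 5.23, 4.90 and 5.46. A549 was lowest. It was 1.25-fold below HBE by LIEA (1.11 to 1.41), a log2 ratio of -0.32 that lies 0.16 below the median of all genes.

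**Figure D3:**
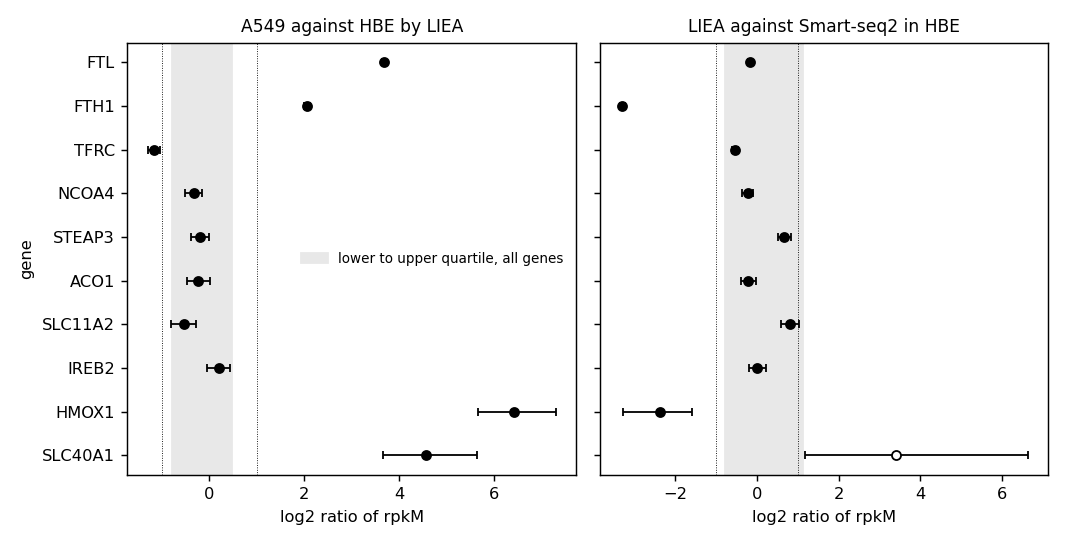
Log2 ratio of rpkM for each gene with its counting interval, A549 against HBE by LIEA on the left and LIEA against Smart-seq2 in HBE on the right. Grey spans the lower to upper quartile of all genes, dotted lines mark 2-fold and the open point has under 10 reads in Smart-seq2. On the left HMOX1 (6.42), SLC40A1 (4.56), FTL (3.68) and FTH1 (2.05) lie to the right of the limit, and on the right FTH1 (-3.30) and HMOX1 (-2.37) lie to the left of it.

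Ordered by rpkM, the genes of LIEA of HBE ran FTL, FTH1, TFRC, NCOA4, STEAP3, ACO1, SLC11A2, IREB2, HMOX1 and SLC40A1. The counting intervals of neighbours overlapped for ACO1 with SLC11A2 and for HMOX1 with SLC40A1. In LIEA of A549 the order was FTL, FTH1, HMOX1, TFRC, NCOA4, STEAP3, ACO1, SLC40A1, IREB2 and SLC11A2, with overlap for TFRC and NCOA4, ACO1 and SLC40A1, and IREB2 and SLC11A2. In Smart-seq2 of HBE it was FTH1, FTL, TFRC, NCOA4, ACO1, STEAP3, HMOX1, IREB2, SLC11A2 and SLC40A1, with overlap for HMOX1 with IREB2 and for IREB2 with SLC11A2. HMOX1 held place 9 in LIEA of HBE and place 3 in LIEA of A549.

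Within HBE, 2 of these genes were past 2-fold between the methods, and both were lower by LIEA. Of the 9 genes with at least 10 reads in both libraries, FTH1 and HMOX1 were at least 2-fold lower by LIEA, against 19.4% of 11732 genes, and 0 were at least 2-fold higher, against 27.8%. FTH1 was 9.85-fold lower (9.49 to 10.2), a log2 ratio of -3.30, and 50 genes, FTH1 included, were at least as low. HMOX1 was 5.18-fold lower (3.0 to 9.70), with 237 genes at least as low. The median over all genes was 0.10.

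The other 7 genes ranged from a log2 ratio of -0.55 for TFRC to 0.82 for SLC11A2. FTL differed by -0.17 (-0.22 to -0.13), and its sign was the opposite, at 0.03, when the values were rescaled to an equal sum in each library (TPM). IREB2 was at 0.00 (-0.21 to 0.21), ACO1 at -0.21, NCOA4 at -0.23 and STEAP3 at 0.67. SLC40A1, with 2 reads in Smart-seq2, was 10.7-fold higher by LIEA with a counting interval of 2.28 to 100.3. Within HBE, therefore, the light chain read nearly alike by the methods and the heavy chain did not.

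GC content and length were set beside these values. FTH1 has a GC content of 50.0%, and the 297 genes within 2.5 points of GC and 1.5-fold in length had their median LIEA to Smart-seq2 ratio, as log2, at -0.56. For HMOX1, at 57.7%, the median of 599 such genes was 0.21, and for FTL, at 56.0%, the median of 224 was -0.32. Among genes alike in GC alone the medians were 0.28 for FTH1, 0.63 for HMOX1 and 0.55 for FTL, so the sign for both ferritin genes depended on whether length was matched. The part of GC and length in the differences was not tested.

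**Figure D4:**
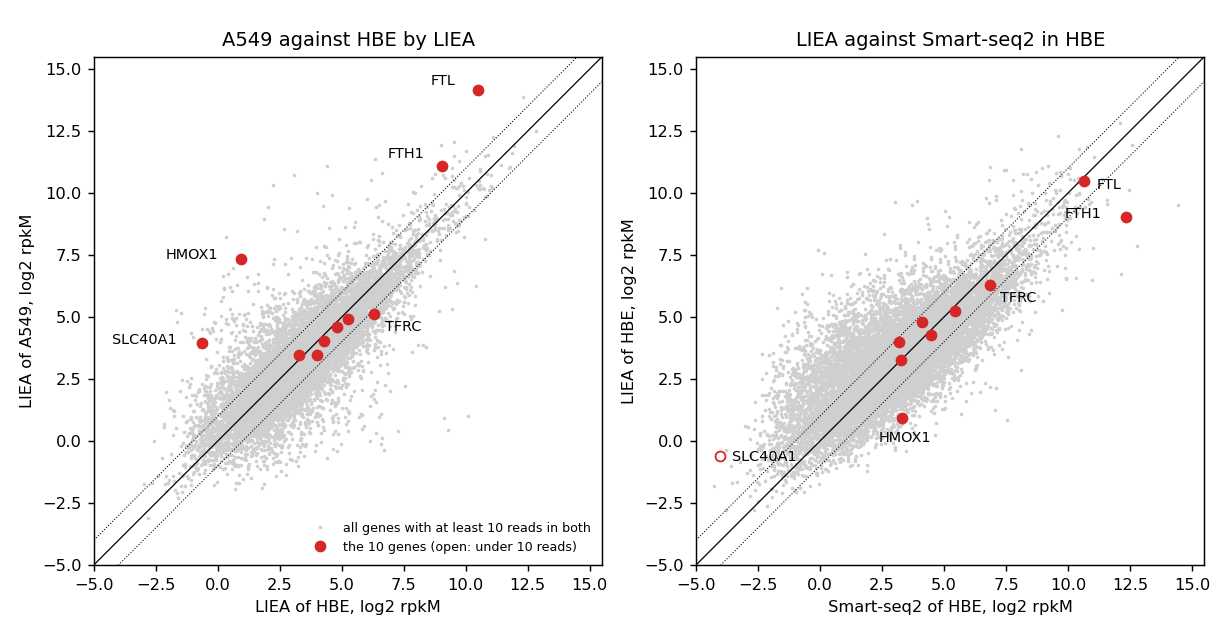
Log2 rpkM of 2 libraries against each other for all genes with at least 10 reads in both (grey) and for the 10 iron handling genes (red, open where a library has under 10 reads), with the line of equality and dotted lines at 2-fold. On the left HMOX1, SLC40A1, FTL and FTH1 lie above the band and TFRC below it, and on the right FTH1 and HMOX1 lie below it.

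The rest of the iron genes were read from fixed lists of 75 further genes, of which 61 had at least 10 reads in both LIEA libraries. In A549, 7 of them were at least 2-fold higher (11.5%) and 6 were at least 2-fold lower (9.84%), below the 13.4% and 17.3% of all genes, with a median log2 ratio of 0.01. Without the 10 genes, the lists for iron sensing, with 4 genes compared, for mitochondrial iron import, with 2, and for other mRNAs with a described iron-responsive element, with 3, held no gene past 2-fold in A549.

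Uptake and reduction was the list with most genes past 2-fold. Beside TFRC, STEAP3 and SLC11A2, 7 of its genes were compared, of which 4 were higher in A549 and 2 were lower, where 13.4% and 17.3% of all genes were. CYBRD1, a ferrireductase of the cell surface, had 91 reads in HBE and 192 in A549 by LIEA, a log2 ratio of 1.23. SLC39A14, which imports iron not bound to transferrin, had 290 and 599, a log2 ratio of 1.20. STEAP2, a further ferrireductase (log2 ratio 1.08), and HFE, a partner of the transferrin receptor (1.01), lay just past the limit. STEAP4, of the same ferrireductase family, had 111 reads in LIEA of HBE and 323 in Smart-seq2 of HBE and was not listed in A549, so it entered no count. SLC39A8, a metal importer, was lower at -1.11, as was LCN2, which binds bacterial iron carriers, at -1.72. The genes of transferrin-bound and other routes of uptake were thus not all on the same side.

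In the list for export, 1 gene beside SLC40A1 was compared, and it was at least 2-fold higher in A549, as were 13.4% of all genes. The gene was CP, whose product ceruloplasmin oxidises the iron that ferroportin releases. It had 32 reads in HBE and 403 in A549 by LIEA, and 56 in HBE by Smart-seq2. Its log2 ratio by LIEA was 3.80 (3.28 to 4.37). BMP6, a signal that induces hepcidin, had 7 reads in HBE and 110 in A549 by LIEA, was not listed in Smart-seq2, and entered no count. HAMP, the gene of hepcidin, which removes ferroportin from the membrane, was listed in no library.

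In the list for heme breakdown and transport, 1 of the 8 genes compared beside HMOX1 was higher in A549 and none was lower, against 13.4% and 17.3% of all genes. This gene was BLVRB, a biliverdin reductase. It had 154 reads in HBE and 2377 in A549 by LIEA, and 292 in HBE by Smart-seq2, and was 17.1-fold higher in A549 by LIEA (14.5 to 20.3). The HBE libraries agree for BLVRB within their counting error, with a log2 ratio of 0.17 (-0.12 to 0.46). BLVRA, the other biliverdin reductase of the list, had 220 reads in HBE and 228 in A549 by LIEA, and 1204 in HBE by Smart-seq2. Its log2 ratio of A549 to HBE by LIEA was 0.20 (-0.07 to 0.47), an interval that includes 0. Of the 11 heme synthesis genes compared, 1 was higher and 1 was lower, against the same 13.4% and 17.3% of all genes. The porphyrin transporter ABCB6 was higher (1.72) and ABCB10, a mitochondrial transporter, was lower (-1.12).

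The list for iron-sulfur cluster assembly was the largest, with 25 genes compared. In A549 0 were at least 2-fold higher and 3 were lower, against 13.4% and 17.3% of all genes. The 3 were FDX1L (-1.25), NDOR1 (-1.14) and FDX1. The median log2 ratio was -0.17, next to the -0.16 of all genes. FDX1 and FDX1L encode ferredoxins and NDOR1 a reductase of the cytosolic pathway. Between the methods the same list had 10 genes lower and 2 higher by LIEA, with a median of -0.84. Over all 75 further genes, 62 were compared between the methods, of which 14 were higher (22.6%) and 16 lower (25.8%) by LIEA, against 27.8% and 19.4% of all genes.

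**Figure D5:**
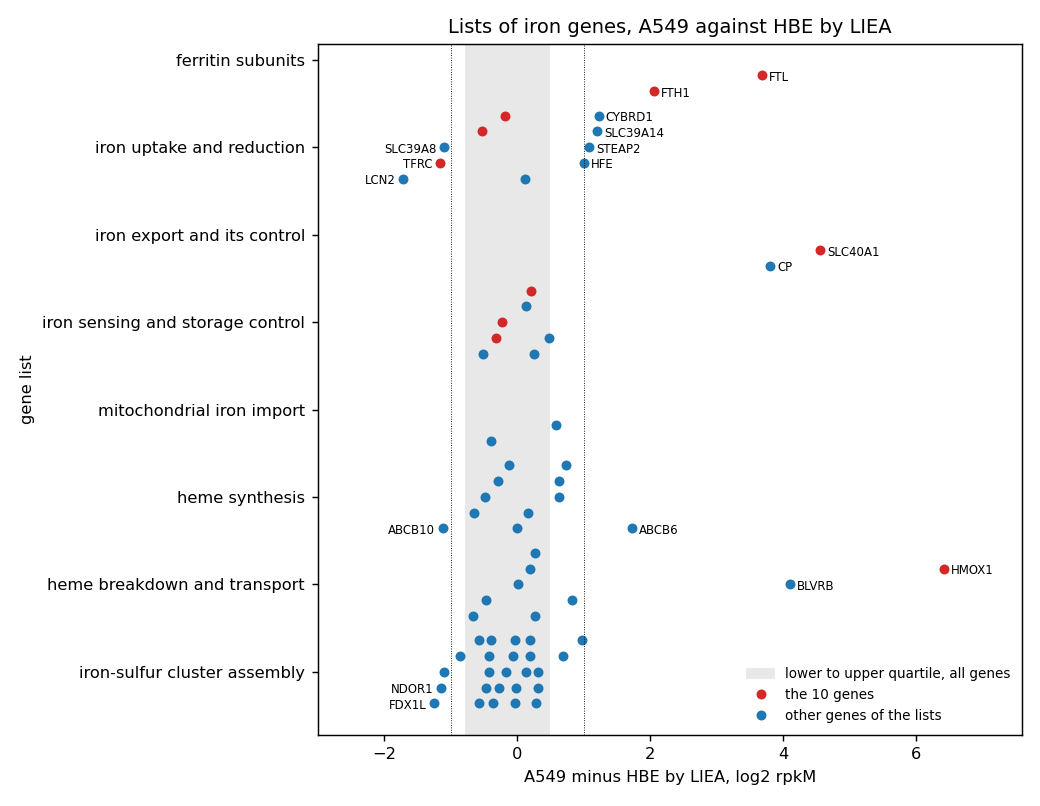
Log2 ratio of A549 to HBE by LIEA for each gene with at least 10 reads in both libraries, 1 row of points per list of iron genes (points are spread vertically only for legibility). Grey spans the lower to upper quartile of all genes and dotted lines mark 2-fold. HMOX1, BLVRB, SLC40A1, CP, FTL and FTH1 lie past a log2 ratio of 2, and no gene for iron-sulfur cluster assembly lies past 1 on the higher side.

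The genes most like FTL were taken as those nearest to it in the pair of log2 ratios, A549 to HBE by LIEA and LIEA to Smart-seq2 in HBE, among 5345 genes with at least 100 reads in all 3 libraries. Both ratios contain LIEA of HBE. Nearest was ALDH3B1, at a distance of 0.19, with a log2 ratio of A549 to HBE of 3.49. PTGR1 (distance 0.31, log2 ratio 3.44), FADS2 (0.46 and 3.56), BLVRB (0.54 and 4.10) and NQO1 (0.63 and 3.09) followed. FTH1 was not among them.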

How the data were processed

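FANSe2 was used by the authors for mapping to RefSeq-RNA, the splice variants of each gene were merged, and log2 rpkM was deposited without a pseudocount. Genes without reads are not listed. Ion Torrent reads were filtered on length and quality and mapped with a larger error allowance than Illumina reads. The version of FANSe2 and the use of strand are not given in the sources used here.

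The 10 genes and the gene lists were chosen with earlier results of these data known. rpkM is the power of 2 of the deposited log2 value. Totals and reads per gene were recovered from the steps of rpkM, since reads are whole. At the totals chosen, 86.7% of 300 genes gave a whole length. The tolerance for whole reads per gene, a separate step, was 0.001. A whole factor shared by reads and length was above 1 for 1953 of the 18856 genes and 1 for each of the 10, and 94.0% of genes matched an annotated transcript. The recovered reads sum to 98.8% to 99.5% of the totals. On simulated data for A549 against HBE by LIEA, with 18238 genes, the 3 totals were exact and the reads of 92.1% of genes were exact. The minimum of 10 reads was misjudged for 118 genes of LIEA of A549, 92 of Smart-seq2 of HBE and 75 of LIEA of HBE. All 100 genes made 4-fold higher and all 100 made 4-fold lower were past 2-fold by their simulated rpkM. They were drawn from genes with more than 200 reads in LIEA of HBE, and their ratios used neither the recovered totals nor the recovered reads. This outcome was nearly fixed in advance and does not check the recovery. It also allows no conclusion for genes with few reads, such as SLC40A1 and HMOX1. With 1 library per condition, no test was run. A gene was called at least 2-fold higher or lower where both libraries had at least 10 reads.

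Intervals of shares are Wilson's, those of ratios exact binomial, and those of rpkM in the order of levels exact Poisson. PCR reads carry no molecular identifiers, so they cover counting error only. Per library, 4 rows with gene names turned into dates that occurred more than once were left out. Named genes follow a rule: the 10 genes, listed ferritin family members, of the other lists genes with at least 100 reads in a LIEA library and past 2-fold between them, at most 6 per list and direction, and the 5 genes nearest to FTL. By this rule the marker lists named KRT8 (log2 ratio of A549 to HBE by LIEA 2.97), KRT18 (2.53), EPCAM (-2.97), CDH1 (-1.56), KRT17 (-9.11), KRT5 (-8.20) and TP63 (-2.82). FDX1, STEAP4, BMP6, BLVRA, CD68 and COL1A1 were named after their values were seen. Alternatives were a pseudocount of 1, 3 scalings, 3 filters, the smallest whole reads and 4-fold as the limit. Python 3.11.15, numpy 2.4.6, pandas 2.3.3, scipy 1.17.1, matplotlib 3.10.9 and blastn 2.17.0 (identity of ferritin copies) were used. GENCODE release 44 on GRCh37 gave positions and sequences. Bulk mRNA-seq and splice junctions were not analysed here.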

Additional observations from a re-analysis of the deposited data

How the results depend on the processing

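No paired analysis was possible because 1 library stands for each condition, so no library could be left out either. Of 164 values under alternatives, 129 moved by less than the criterion and 35 by more, and no call changed direction. The criterion differed between counts and single values. A count of 3 in place of 4 genes was within it, and a log2 ratio of FTL of 3.84 in place of 3.68 was past it. The 164 include counts over all genes, so the split does not measure the stability of the 10 genes. With at least 100 reads required in both libraries, 2 of the 10 genes were at least 2-fold higher in A549 (FTL and FTH1), since HMOX1 and SLC40A1 have fewer in LIEA of HBE, and 1 was lower by LIEA than by Smart-seq2 (FTH1). With rpkM above 1 required, 9 of the 10 genes could be compared between the cell lines and 3 were higher in A549, without SLC40A1. With 4-fold as the limit, 0 were lower in A549. The count higher by LIEA than by Smart-seq2, 0 as reported, was 1 when values had an equal sum in each library (TPM; SLC11A2) and 1 with no filter on reads (SLC40A1). FTL took 1454 RPM in Smart-seq2 when the MTRNR2L genes, copies of a mitochondrial RNA gene, were left out of the totals.

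Over all genes, the counts higher and lower in A549 were 1517 and 1956, and became 520 and 771 at 100 reads, 2837 and 2954 with no filter, and 467 and 415 at 4-fold. Those by LIEA were 3256 and 2281, and became 1670 and 1114 at 100 reads and 1474 and 483 at 4-fold. Of calls between the cell lines 43.7% were higher in A549, which became 55.4% when centred on the median and 33.2% when values had an equal sum in each library, with a median log2 ratio of -0.16 against -0.32 in the last. The share was 58.8% between the methods, and 68.0% when values had an equal sum in each library. Depth limits SLC40A1 and HMOX1 most, with 10 and 14 reads in LIEA of HBE.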
